A study of Danio rerio with 6 samples.

Results

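This account covers 10 zebrafish genes of the lysosome, read in kdrl+ cells sorted by NF-kB reporter fluorescence. The labels call the cells endothelial, but globins made up 7.34% of the table's reads in NFKB+ and 39.1% in NFKB- libraries, so blood transcripts were abundant beside endothelial ones. They encode the proteases ctsla, ctsba, ctsz, ctsk and lgmn, the glycosidases hexb and gla, the membrane glycoproteins lamp1 and lamp2 and the membrane channel mcoln2. They were picked by name from the 2471 genes of the deposited table that were analysed, and all 10 were found. Cells came from dissected trunks of embryos at 22 hours post fertilization. Every embryo carried both NFKB:d2eGFP, a short-lived green reporter of NF-kB activity, and kdrl:mCherry, a red reporter driven by the promoter of the VEGF receptor gene kdrl. NFKB+ libraries were made from kdrl+ cells with the green reporter and NFKB- libraries from kdrl+ cells without it, 3 libraries of each, from about 7000 cells apiece. The labels call these biological replicates and do not say whether each came from its own pool of embryos, so the spread between them may be partly technical. NF-kB itself was not perturbed, and fluorescence is the only difference between the sorts that the labels name.

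Lysosomes are acidic organelles in which proteins, glycans, lipids and nucleic acids taken up from outside or from the cell itself are broken down. Soluble hydrolases are delivered to them from the Golgi, a proton pump acidifies the lumen, and heavily glycosylated membrane proteins line the inner face of the membrane. In zebrafish embryos, venous and lymphatic endothelial cells that carry stabilin receptors take up macromolecules from the blood and pass them to lysosomes, and macrophages and other phagocytes are rich in the same enzymes.

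The authors had kept only genes that differed between these same libraries by at least 2-fold at adjusted p 0.01, and the 10 genes were chosen with their differences known. Their differences are therefore described here without a test. Values are log2(normalized reads + 1), where normalized reads are reads divided by the authors' size factor of the library. Differences are NFKB+ minus NFKB- and carry the standard error over 3 libraries per sort. Of the 10 genes, 8 were higher and 2 lower in NFKB+ cells on the authors' scaling, although the differences of ctsba, ctsz, ctsk and hexb were at or below 0, from -0.37 to -0.017, once the libraries were aligned on endothelial markers. The sorts did not overlap for any of the 10, which was also so for 99.6% of the analysed genes. The share of all analysed genes that were higher in NFKB+ cells was 54.5%, and the choice of genes fixes what can be read from such counts. The median difference of the 10 was 1.27, against 1.08 over all genes. As no gene in the table lies near 0, such medians depend largely on the share of higher genes. Among higher genes alone, the median was 1.53 for the 8 and 1.48 over the table.

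**Figure D1:**
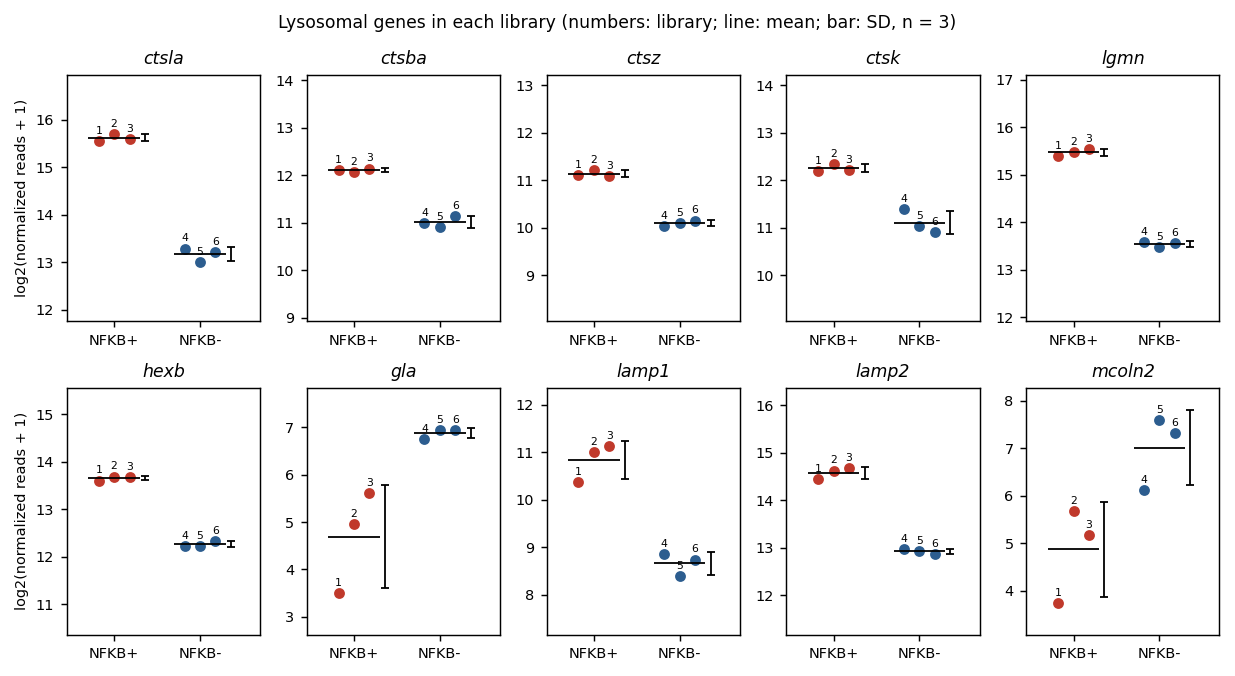
Level of each of the 10 genes in each library, as log2(normalized reads + 1); points are libraries marked with their number, lines are means and bars SDs of 3 libraries, and all panels span the same number of log2 units. The sorts are far apart and tight for ctsla, lgmn, hexb and lamp2, while gla and mcoln2 spread over more than a log2 unit within NFKB+ cells.

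Among the proteases, ctsla had the widest separation. It encodes cathepsin L, a cysteine endopeptidase that degrades proteins in the lysosome and, when secreted, matrix. Its level was 15.55, 15.70 and 15.60 in NFKB+ libraries, against 13.29, 13.01 and 13.22 in NFKB- libraries. The lowest NFKB+ library thus lay 2.27 above the highest NFKB- library. The difference was 2.45 ± 0.094 (SE, n = 3 per sort), or 5.45-fold.

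The legumain gene lgmn followed. Legumain is an asparaginyl endopeptidase that also cleaves other lysosomal proteases into their mature forms. Its level was 15.40, 15.48 and 15.55 in NFKB+ libraries, against 13.60, 13.48 and 13.57 in NFKB- libraries. Both sorts were tight, with SDs of 0.074 in NFKB+ and 0.063 in NFKB- libraries. The difference was 1.93 ± 0.056, or 3.81-fold.

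The remaining cathepsins differed by little more than the 2-fold that a gene needed to be in the table. Cathepsin B (ctsba), a protease with both endopeptidase and peptidyl-dipeptidase activity, was at 12.11, 12.06 and 12.14 in NFKB+ libraries, against 11.00, 10.90 and 11.14 in NFKB- libraries. Cathepsin Z (ctsz), a carboxypeptidase, was at 11.10, 11.22 and 11.09 in NFKB+ libraries, against 10.03, 10.10 and 10.15 in NFKB- libraries. Cathepsin K (ctsk), which in mammals is the collagen-degrading protease of osteoclasts, was at 12.19, 12.35 and 12.22 in NFKB+ libraries, against 11.39, 11.04 and 10.91 in NFKB- libraries. These differences were 1.09 ± 0.073 for ctsba, 1.04 ± 0.053 for ctsz and 1.14 ± 0.15 for ctsk. In the authors' deposited table, ctsz stood at a fold change of 2.05, close to the limit of 2.

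Ratios between genes within a library do not depend on how libraries are scaled. The log2 ratio of ctsla to ctsba was 3.44, 3.64 and 3.46 in NFKB+ libraries, against 2.29, 2.11 and 2.08 in NFKB- libraries. The cathepsin L transcript was thus 2.56-fold more abundant relative to that of cathepsin B in NFKB+ cells. The ratio of ctsla to ctsk differed by 1.31, with means of 3.37 ± 0.019 in NFKB+ and 2.06 ± 0.22 in NFKB- libraries (SD, n = 3). The ratio of lgmn to ctsba differed by 0.84, with means of 3.37 ± 0.072 in NFKB+ and 2.53 ± 0.091 in NFKB- libraries. These ratios restate differences given above, of genes chosen with those differences known. As a description, the protease genes did not differ between the sorts by one common factor.

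The glycosidase genes went opposite ways. The hexb gene encodes the beta subunit of hexosaminidase, which trims amino sugars from gangliosides and glycans. Its level was 13.61, 13.69 and 13.68 in NFKB+ libraries, against 12.23, 12.23 and 12.34 in NFKB- libraries. This was the smallest standard error of the 10, with a difference of 1.40 ± 0.044, or 2.63-fold.

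The gla gene encodes alpha-galactosidase A, which removes galactose from glycolipids and is deficient in Fabry disease. Its level was 3.51, 4.95 and 5.62 in NFKB+ libraries, against 6.74, 6.94 and 6.94 in NFKB- libraries. These values rest on few reads, namely 10, 25 and 75 in NFKB+ libraries, against 94, 127 and 112 in NFKB- libraries. For the library with 10 reads, the exact Poisson 95% interval is 4.80 to 18.4 reads and covers counting error only. The difference of -2.18 ± 0.63 became -1.59 without NFKB+ library 1, which gave that lowest value. The ratio of mean normalized reads, 29.5 in NFKB+ against 117 in NFKB- libraries, is smaller than the 4.54-fold difference of log2 means, and the authors' deposited table gives a log2 fold change of -1.73.

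The lysosomal membrane glycoproteins were both higher in NFKB+ cells. Lamp1 and Lamp2 are the main glycoproteins of the lysosomal membrane, and a splice form of mammalian LAMP2 takes up proteins in chaperone-mediated autophagy. The lamp2 level was 14.44, 14.63 and 14.68 in NFKB+ libraries, against 12.98, 12.93 and 12.86 in NFKB- libraries, a difference of 1.66 ± 0.080 or 3.16-fold. The lamp1 level was 10.38, 11.00 and 11.12 in NFKB+ libraries, against 8.85, 8.39 and 8.74 in NFKB- libraries, a difference of 2.17 ± 0.27 or 4.51-fold. NFKB+ library 1 was the lowest of its sort for both. The log2 ratio of lamp1 to lamp2 was -4.06, -3.63 and -3.55 in NFKB+ libraries, against -4.13, -4.54 and -4.12 in NFKB- libraries. The gap between the sorts in this ratio was 0.059, within the spread of either sort.

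The mcoln2 gene encodes a mucolipin, a cation channel of late endosomes and lysosomes that in mammals is found chiefly in immune cells. Its level was 3.75, 5.68 and 5.18 in NFKB+ libraries, against 6.13, 7.60 and 7.32 in NFKB- libraries. Reads were 12, 42 and 55 in NFKB+ libraries, against 61, 201 and 146 in NFKB- libraries. The closest libraries of the sorts, NFKB+ library 2 and NFKB- library 4, were 0.44 apart. The difference of -2.14 ± 0.73 was -1.58 without NFKB+ library 1 and -2.59 without NFKB- library 4.

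Across the 10 genes, NFKB+ library 1 was the lowest of its sort for 8, namely all but ctsba and ctsz. It was the lowest for 42.2% of all analysed genes. Within NFKB- cells the lowest value fell in library 4 for 4 genes, in library 5 for 4 and in library 6 for 2. The 8 higher genes had SDs between 0.042 and 0.40 within a sort, whereas gla had 1.08 in NFKB+ and 0.11 in NFKB- libraries, and mcoln2 had 1.00 in NFKB+ and 0.78 in NFKB- libraries.

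For each gene, the closest gene of the table was the one with the smallest Euclidean distance between log2 profiles over 6 libraries, each centred on its own mean. For lgmn this was fuca1.1, which encodes the lysosomal alpha-L-fucosidase, at a distance of 0.14. For lamp2 it was eva1ba, at 0.069, for ctsla it was npl, which encodes a sialic acid lyase, at 0.18, and for lamp1 it was sgk1, which encodes a kinase, at 0.33. For hexb it was creb3l3l at 0.13, for ctsk tcf12 at 0.11, for ctsba tmem189 at 0.12 and for ctsz si:ch211-71m22.1 at 0.054. For gla the nearest was atf5a at 0.66 and for mcoln2 or104-2 at 0.77. The nearest other gene of the 10 ranked between 17 and 418 in these orders, so the 10 profiles were not each other's closest neighbours. In a table selected for a difference between the sorts, such distances mostly reflect the size of that difference.

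The wider lysosomal lists held 243 symbols, of which 42 were matched by name or alias to genes in the table. The listed laptm5 was not matched, and a gene of that description is given at the end. All 42 passed limma's adjusted p 0.05, as did 100% of the analysed genes, since the authors had selected on the same libraries. Of the 42, 34 were higher and 8 lower in NFKB+ cells, against 54.5% higher and 45.5% lower among all genes. Without the 10 genes above, 26 of 32 were higher and 6 lower, with a median difference of 1.36 against 1.08 over all genes. Here too the medians depend largely on the share of higher genes. The lists were drawn up with earlier results of these data known, so the 32 are not independent of the contrast. Aligning the libraries on the pan-endothelial markers, which passed the same selection, shifts all genes alike. It left 9 of the 42 higher and 12 lower past the threshold. The other 21 did not pass it. Over all genes, 258 were higher and 1212 lower past it. A listed gene outside the authors' selection was not analysed here.

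**Figure D2:**
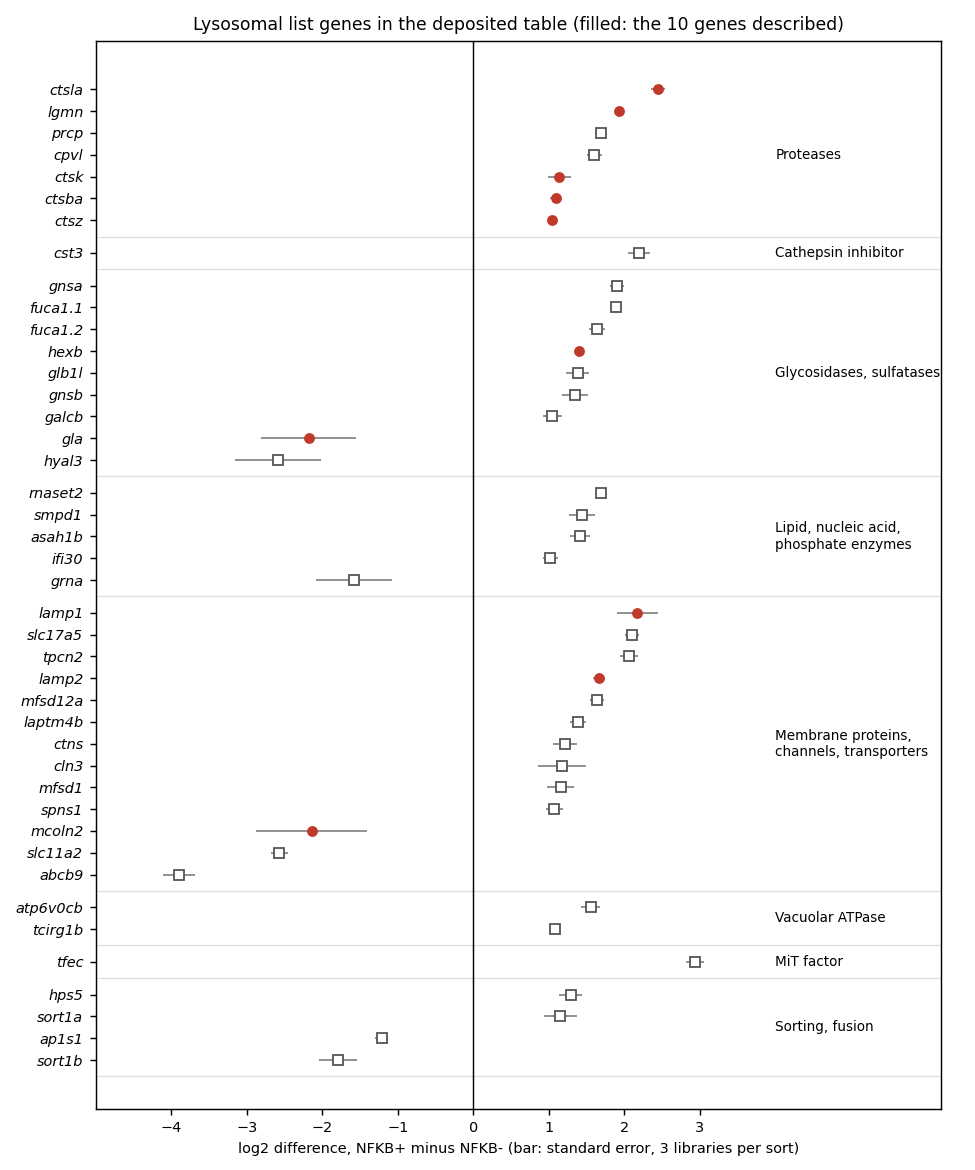
Difference between the sorts, NFKB+ minus NFKB- on the log2 scale, for the 42 lysosomal list genes matched in the table, grouped by role. Bars are standard errors over 3 libraries per sort and filled points are the 10 genes described. Points to the right of 0 are the 34 genes that were higher in NFKB+ cells, and the 8 to the left include gla and mcoln2; no gene lies close to 0 because the table was limited to 2-fold differences.

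By role, the 7 protease genes in the table, of 24 listed, were all higher in NFKB+ cells on the authors' scaling. Among all analysed genes, 54.5% were higher. The 5 proteases above had been chosen with their differences known, so the count rests largely on that choice. With aligned markers, the differences of ctsba, ctsz and ctsk were -0.32, -0.37 and -0.27. The other protease genes were cpvl and prcp, which encode serine carboxypeptidases, 3.04- and 3.22-fold higher. The cystatin C gene cst3, whose product inhibits cysteine cathepsins, was higher as well, at 11.45, 11.74 and 11.66 in NFKB+ libraries, against 9.67, 9.30 and 9.31 in NFKB- libraries. Its difference was 2.19, so the inhibitor and the proteases were higher in the same sort. Of 9 glycosidase and sulfatase genes in the table, 7 were higher, the chosen hexb among them. They included gnsa and gnsb, for the sulfatase that acts on heparan sulfate, at 1.90 and 1.34, and fuca1.1 and fuca1.2 at 1.89 and 1.64. Reads of these tandem copies may have been split or shared by the counting. Beside gla, hyal3, a hyaluronidase gene, was lower, at 6.53, 6.37 and 4.77 in NFKB+ libraries, against 8.50, 8.62 and 8.30 in NFKB- libraries.

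A mixed list, chiefly of lipid and nucleic acid enzymes, also held the thiol reductase gene ifi30 and the granulin gene grna. From it, the ribonuclease gene rnaset2, the acid sphingomyelinase gene smpd1 and the acid ceramidase gene asah1b were higher, by 1.69, 1.44 and 1.41. The ifi30 gene was higher by 1.02 on the authors' scaling and at -0.39 with aligned markers. The granulin gene grna was lower, with a difference of -1.58 ± 0.50. It rests on few reads, with means of 34.9 normalized reads in NFKB+ and 98.8 in NFKB- libraries. Of 13 membrane proteins, channels and transporters, 10 were higher, the chosen lamp1 and lamp2 among them, against 54.5% of all analysed genes. The sialic acid exporter gene slc17a5 and the cation channel gene tpcn2 led these beside lamp1, at 4.29- and 4.17-fold higher. The cystine exporter gene ctns and the gene cln3, which is mutated in Batten disease, were at 1.21 and 1.18. On the other side, the divalent metal transporter gene slc11a2, which developing red cells use for iron, had a difference of -2.57, and the peptide transporter gene abcb9 one of -3.90. The name abcb9 also stood on the neutrophil list. Together with mcoln2, these were the 3 lower genes of this group among those matched by name or alias.

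Few listed genes of acidification, sorting and control were in the table, which holds only genes past the authors' 2-fold limit. Among all analysed genes, 54.5% were higher and 45.5% lower. Of 28 listed proton pump genes, atp6v0cb and tcirg1b were in the table, higher by 1.56 and 1.08 on the authors' scaling. With aligned markers, they were at 0.14 and -0.34. Of 45 sorting and fusion genes, hps5 and sort1a were higher, by 1.29 and 1.15, and the adaptor gene ap1s1 and the sortilin gene sort1b lower, with differences of -1.22 and -1.79. Of the 26 listed genes of the MiT transcription factors and of nutrient sensing at the lysosome, tfec alone was in the table. MiT factors such as TFEB switch on lysosomal genes in mammals, and tfec encodes another member of that family. It was higher in NFKB+ cells, at 12.94, 13.22 and 13.06 in NFKB+ libraries, against 10.31, 10.00 and 10.11 in NFKB- libraries.

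Markers of several cell types differed between the same libraries. In bulk RNA, a lower level of a transcript cannot be told apart from fewer cells of the type that makes it. Of all analysed genes, 54.5% were higher and 45.5% lower in NFKB+ cells, and every marker in the table had passed the authors' selection. All 12 venous and scavenger endothelial markers in the table, of 13 listed, had higher values in NFKB+ cells. Their median difference was 2.38, with summed normalized reads of 313452 to 326627 in NFKB+ against 51686 to 70703 in NFKB- libraries. Among them were the stabilin genes stab1 and stab2, at 2.01 and 2.46. Of 16 pan-endothelial markers in the table, from 24 listed, 15 were higher and tal1 lower. The pan-endothelial median was 1.54, with sums of 626259 to 652239 in NFKB+ against 218563 to 279312 in NFKB- libraries. The kdrl gene itself was 2.30-fold higher. Markers of non-endothelial trunk tissues lay on the same side. All 5 epidermis, periderm and hatching gland markers in the table, of 27 listed, had higher values in NFKB+ cells. Their median was 1.94, with sums of 2547 to 5041 normalized reads in NFKB+ against 1025 to 1546 in NFKB- libraries. The notochord gene matn4, alone of 23 listed notochord and muscle markers in the table, had a difference of 1.72.

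Blood markers went the other way. Of 15 macrophage markers in the table, from 28 listed, 14 were lower in NFKB+ cells and timd4 higher, against 45.5% lower among all genes. The macrophage median was -2.87, with sums of 7872 to 9129 normalized reads in NFKB+ against 56651 to 70019 in NFKB- libraries. The macrophage genes mpeg1.1 and mfap4 differed by -1.81 and -1.79, less than the leukocyte gene fcer1gl at -3.71. All 11 neutrophil markers in the table, of 16 listed, were lower, with a median of -3.90. That median is the value of abcb9, which was also counted among the lysosomal genes. All 18 erythroid markers in the table, of 24 listed, were lower, with a median of -2.75. Globins made up 7.34% ± 0.588 of the table's reads in NFKB+ and 39.1% ± 2.90 in NFKB- libraries (SD, n = 3). The part of these marker differences in those of gla, mcoln2 and the 8 higher genes was not tested.

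**Figure D3:**
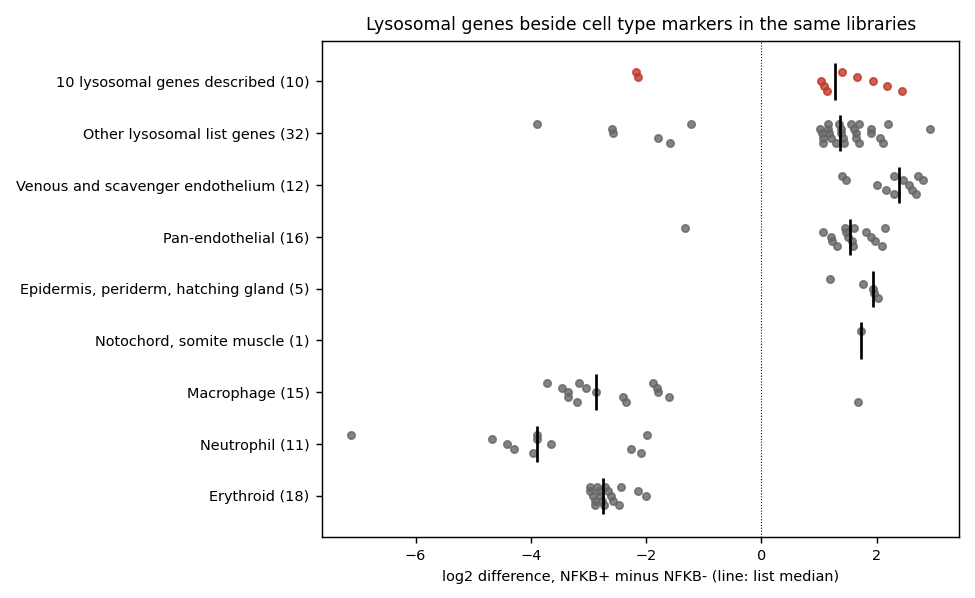
Differences between the sorts, NFKB+ minus NFKB- on the log2 scale, for the 10 genes described, the other 32 lysosomal list genes and 7 marker lists; points are genes, black lines list medians, and numbers in brackets count the genes in the table. Most lysosomal genes lie on the side of the endothelial markers (medians 2.38 and 1.54) and of the epidermal markers (median 1.94). The gla and mcoln2 genes, at -2.18 and -2.14, lie on the side of the blood markers, whose medians run from -3.90 to -2.75.

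The pan-endothelial markers give a scale on which to read the size of the differences, though a limited one. Of 24 listed, only 16 were in the table, each past the authors' 2-fold limit on these same libraries. The shift that they set therefore depends in part on that selection. Setting the mean log2 value of these 16 markers equal in all libraries shifted the difference of every gene by -1.41, so the order of the genes is that of the deposited differences. On this scale ctsla had a difference of 1.03 ± 0.11 (limma SE), lamp1 of 0.76 ± 0.22, lgmn of 0.52 ± 0.12 and lamp2 of 0.25 ± 0.12. The differences were -0.32 ± 0.14 for ctsba, -0.37 ± 0.15 for ctsz, -0.27 ± 0.10 for ctsk and -0.017 ± 0.13 for hexb. Those of gla and mcoln2 were -3.59 and -3.56. Among the other lysosomal list genes, tfec, cst3, slc17a5, tpcn2, gnsa and fuca1.1 had differences of 1.52, 0.78, 0.69, 0.65, 0.49 and 0.48. Below 0 past the threshold were abcb9, hyal3, slc11a2, sort1b, grna and ap1s1, from -5.31 to -2.63. So were ifi30, spns1 and tcirg1b, at -0.39, -0.34 and -0.34, which were higher on the authors' scaling. Of all 42 listed genes, 9 were higher and 12 lower past the threshold. These values are a description and say which genes differed by more than the mean of the 16 pan-endothelial markers. That mean includes tal1, the only marker of the 16 that was lower, at -1.32 on the authors' scaling. Without tal1 the mean difference would be higher, and all differences on this scale, such as that of lamp2, lower. How much lower was not computed. The venous and scavenger markers, not part of that mean, had a median difference of 2.38 on the authors' scaling. There, ctsla was at 2.45, lamp1 at 2.17, lgmn at 1.93 and lamp2 at 1.66. The alignment on the 16 markers was chosen after seeing the data.

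**Figure D4:**
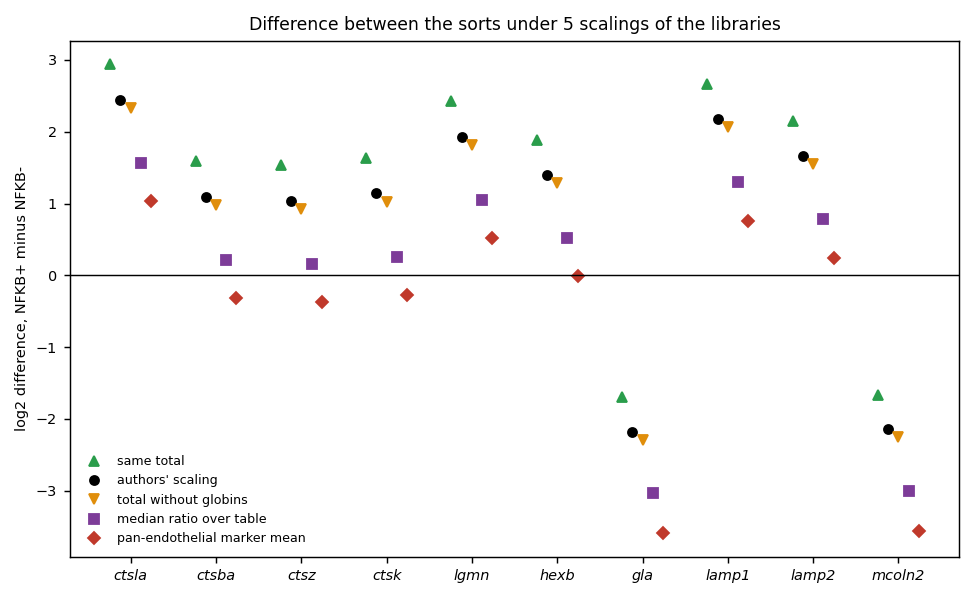
Difference between the sorts for each of the 10 genes, NFKB+ minus NFKB- on the log2 scale, under 5 scalings of the libraries given by symbol. Each scaling shifts all genes nearly alike, so their order can hardly change. The ctsla gene is above 0, and gla and mcoln2 are below 0, in all 5. The ctsba, ctsz, ctsk and hexb genes are at or below 0 when the libraries are aligned on the pan-endothelial marker mean.

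Some values carry limits of their own. In RefSeq's GRCz12tu annotation, a newer assembly than the danRer10 build that the submitters' processing notes name, the span of ctsz overlaps that of si:dkey-249d8.1 and the span of lamp2 overlaps that of atp1b4. The labels do not say whether the counting used strand, so reads of such neighbours might not be separated.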

How the data were processed

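Per the labels' protocols, a low-input kit was used for the libraries. Tools in the submitters' processing notes are cutadapt, STAR, HTSeq and DESeq2, and the build is danRer10, without versions or roles, and no annotation is named. One table was deposited by the authors. Its 2475 rows hold a log2 value per library, and a signed fold change score, a log2 fold change, p-values and an average log2 expression per gene, per the file headers. All analysed genes met 2-fold and adjusted p 0.01 in it. The log2 values, taken back to normalized reads, were whole reads within 0.1 after multiplication by 1 size factor per library for 100% of values under 1000 reads, so they are log2(reads / size factor + 1). Size factors were 0.963, 0.834 and 1.56 in NFKB+ and 0.886, 1.04 and 0.918 in NFKB- libraries. The table's reads came to between 8393815 and 15165090 per library, which are not library depths.

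The 4 rows of 2 repeated names (mafba, efna2a) were left out, leaving 2471 genes. The columns name the sort and a running number that is no replicate number of the labels, and libraries are called by it. The comparison of sorts used limma 3.58.1 (R 4.3.3, eBayes with trend, Benjamini-Hochberg over 2471 genes, threshold 0.05, pseudocount 1, no filter). The step was tested on simulated data in which most genes did not differ. Here all genes were selected for a difference, so that test does not vouch for these calls. The members, lists and rules were chosen with earlier results of these data known. Named genes were the 10 members, any lysosomal list gene in the table, the nearest gene to each member, and from each marker list those of largest difference; mpeg1.1, mfap4, timd4, stab1, stab2, tal1 and kdrl were named after their values were seen. List symbols were matched to names or aliases in the table. Of the 10 gene IDs, 9 matched RefSeq's table and lamp1 did not, its name being a synonym of lamp1b there. Alternatives were other scalings, pseudocounts of 0.5 and 8, a minimum mean of 50 normalized reads, library weights, limma-voom and leaving out each library.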

Additional observations from a re-analysis of the deposited data

How the results depend on the processing

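The 10 genes kept their direction under every alternative except one, the alignment on the pan-endothelial marker mean, where the differences of ctsba, ctsz, ctsk and hexb were -0.32, -0.37, -0.27 and -0.017. There, 9 listed lysosomal genes and 258 genes of the table were higher past the threshold, against 34 and 1347 on the authors' scaling; the alignment lowers the median difference of all genes by its own construction, with a shift of -1.41. Scaling to the same total shifted that median by 0.49, the total without globins by -0.11 and median ratios over the table by -0.88. Median ratios left 23 listed lysosomal genes higher and 8 lower, against 920 higher and 1124 lower over the table, and ctsba, ctsz and ctsk at 0.21, 0.16 and 0.26. Alignment on the markers and the total without globins were chosen after seeing the data. Settings that do not rescale the libraries left the 10 differences within 1 SD of replicates, and limma-voom on recovered reads called 1347 genes higher and 1124 lower. Leaving out 1 library at a time gave 34 higher and 8 lower listed genes each time, and 1343 to 1347 higher and 1122 to 1124 lower genes of the table. The table was selected on these libraries, which fixes much of this. Of the 10 genes, gla and mcoln2, which have few reads, are the least precise. No paired analysis was possible because column names number the libraries across both sorts without the labels' replicate numbers.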

Other observations

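One further lysosomal gene was noticed after its values were seen, because the table lists it by an identifier. The listed symbol laptm5 matched no name or alias there, so this gene is not among the 42 counted above. The gene LOC100151049, described there as lysosomal-associated protein transmembrane 5, a membrane protein of blood cell lysosomes in mammals, was at 5.48, 6.24 and 6.10 in NFKB+ libraries, against 9.80, 9.52 and 10.02 in NFKB- libraries, as log2 values. Its difference was -3.84 ± 0.27 (SE, n = 3 per sort), lower in NFKB+ cells, as were 45.5% of all analysed genes. Its relative laptm4b, which was matched and counted, was higher, at 11.30, 11.48 and 11.42 in NFKB+ libraries, against 10.09, 10.13 and 9.84 in NFKB- libraries.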
